A study of Mus musculus with 12 samples.

Results

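The centrosome and pericentriolar genes described here are 39 of 17742 named genes on a mouse oligonucleotide array. They were chosen by name alone. A gene was taken if its platform symbol was Cep followed by a digit, or if it was one of Pcnt, Pcm1, Cntrob, Cntln, Nin, Ninl, Akap9, Cdk5rap2, Plk4, Sass6, Stil, Azi1, the gamma-tubulin genes Tubg1 and Tubg2 and the complex genes Tubgcp2 to Tubgcp6. A gene with several probes is represented by the probe with the highest mean deposited value over the 12 arrays. Of the 39 genes, 36 had 1 probe, and Cep97, Cep350 and Pcm1 had another. The symbol Cep110 is an older name of both Cntrl and Ccp110 in the RefSeq table, so that probe is given no role. Azi1 is now called Cep131.

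The arrays measured total RNA of whole hearts from mice at postnatal day 8 on a C57bl/6 X 129 hybrid background. The group labelled Salv CKO, a Salvador mutant, and the group labelled Control, described as wild-type, each held 2 biological samples. Each sample was hybridised in Cy5 to 3 technical arrays, which were averaged and counted as 1 replicate. The source label names embryonic heart, but the stage label and the extraction protocol give postnatal day 8. No source used here gives the Cre driver, the deleted part of the gene, or whether a sample was 1 heart or a pool. The replicates are called biological by the submitters, and the p-values speak only of these 4 samples. The standard errors (SE) and p-values rest partly on all probes, since limma moderates each variance (2.60 prior degrees of freedom beside 2 residual).

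The centrosome is the main microtubule-organising centre of a dividing animal cell. It holds a pair of centrioles inside a cloud of pericentriolar material, which anchors gamma-tubulin ring complexes that nucleate microtubules. Centrioles are copied once in each cell cycle, under the kinase Plk4. In heart muscle, centrosome integrity is lost around birth, and several pericentriolar proteins, among them Pcm1, Pcnt and Akap9, move to the nuclear envelope of the cardiomyocyte.

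The tissue label matched the cardiomyocyte markers that were measured, 5 of 10. Their mean deposited intensities ran from 28378 to 44120. Deposited intensities of the centrosome genes ran from 1 to 3379, and the lowest over all probes was -10. Levels below are log2(intensity + 1) after quantile normalization, each a mean of 3 arrays. Where 4 levels are listed with no sample names, the order is Salv CKO 1, Salv CKO 2, Control 1, Control 2. Sav1, the targeted gene, did not follow the labels. Its 4 log2 levels were 8.06, 8.52, 8.75 and 8.08. The lowest 2, in Salv CKO 1 and Control 2, came from different groups. The difference was -0.12 ± 0.34 (SE, limma, adjusted p = 0.998), so every direction below is that of the labels. RNA came from whole hearts, where fewer cells of a type and less RNA per cell cannot be told apart.

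Of the 39 centrosome genes, 0 passed an adjusted p of 0.05 (limma with Benjamini-Hochberg adjustment over all probes, smallest adjusted p = 0.998). The same share over all 26423 probes was 0%. At an unadjusted p under 0.05 there was 1 member, Cep135, which was lower in the samples labelled Salv CKO. Over all named genes that share was 3.31%, of which 1.54% were higher and 1.77% lower. A difference here is Salv CKO minus Control on that log2 scale. The median difference of the members was -0.015, against -0.020 over all named genes. Positive differences made up 17 of 39 members (43.6%, against 46.9% of all named genes). That number was 12 under median centring of the arrays and 22 without normalization. The members' differences ran from -0.71 to 0.45.

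The 2 groups did not overlap in 12 of 39 members, or 30.8%, against 30.7% of all named genes. Of these, 6 were higher in the samples labelled Salv CKO, with a background of 14.2%, and 6 were lower, with a background of 16.5%. The higher genes were Plk4, Cep152, Cep192, Cep57, Cep57l1 and Cep350. The lower genes were Cep135, Cep55, Cep76, Sass6, Cep250 and Cep72, of which the last 4 were dim, with a mean deposited intensity under 100. The split changed with the scaling. It was 2 higher and 7 lower with median centring, and 5 higher and 2 lower without normalization. These scalings moved the median difference of all named genes to -0.11 and 0.082. The share of all named genes without overlap is given for the main setting only. Cep152 and Cep57l1 stayed higher, and Cep135 and Cep250 lower, without overlap, under all 3 scalings. Markers of some other cell types lay apart between the groups, while 0 of 6 endothelial and 0 of 4 macrophage markers did. Cardiomyocyte markers had 4 of 5 negative differences and 2 lower without overlap, all differences lying between -0.15 and 0.13. Erythroid markers, 3 of 5 measured, had 3 positive differences and 1 higher without overlap, Ermap, which was dim (mean deposited intensity 18.6). Alas2 had levels of 13.08, 13.66, 13.34 and 12.32, and Slc4a1 of 8.56, 9.23, 9.07 and 7.14. In both, Control 2 was the low sample and Control 1 lay above Salv CKO 1. Of 6 multiciliated cell markers, 1 was higher and 1 lower without overlap. Of the smooth muscle markers 3 of 4 were measured and lower without overlap, with summed log2 levels of 6.28, 6.97, 11.2 and 14.0. Tagln and Cnn1 among them were dim (mean deposited intensities 26.6 and 1.33), their differences at a pseudocount of 16 were -1.13 and -0.19 (that of Cnn1 was -1.18 at a pseudocount of 1), and the list's median technical SD, 0.91, exceeded its SD between samples, 0.35. Acta2, the other smooth muscle marker, had levels of 2.26, 2.85, 3.62 and 7.09. Its mean deposited intensity, 2537, was far above what those levels stand for, so its single arrays differed widely. Adipocyte markers, 5 of 5 measured, had 0 positive differences and 3 without overlap. Their sums were 42.2, 34.2, 46.3 and 43.1, so Salv CKO 2 was the low sample and Salv CKO 1 lay near Control 2. Fibroblast markers had 3 of 7 lower without overlap, but 4 of the 7 differences were positive (median 0.057). Of the lower 3, Col1a1 was dim (mean deposited intensity 4.33), Col1a2 differed by -0.19 and Dcn by -0.032. The part of these cell types in the members' values was not tested. An exact permutation test of 2 samples against 2 cannot give a p below 0.333.

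**Figure D1:**
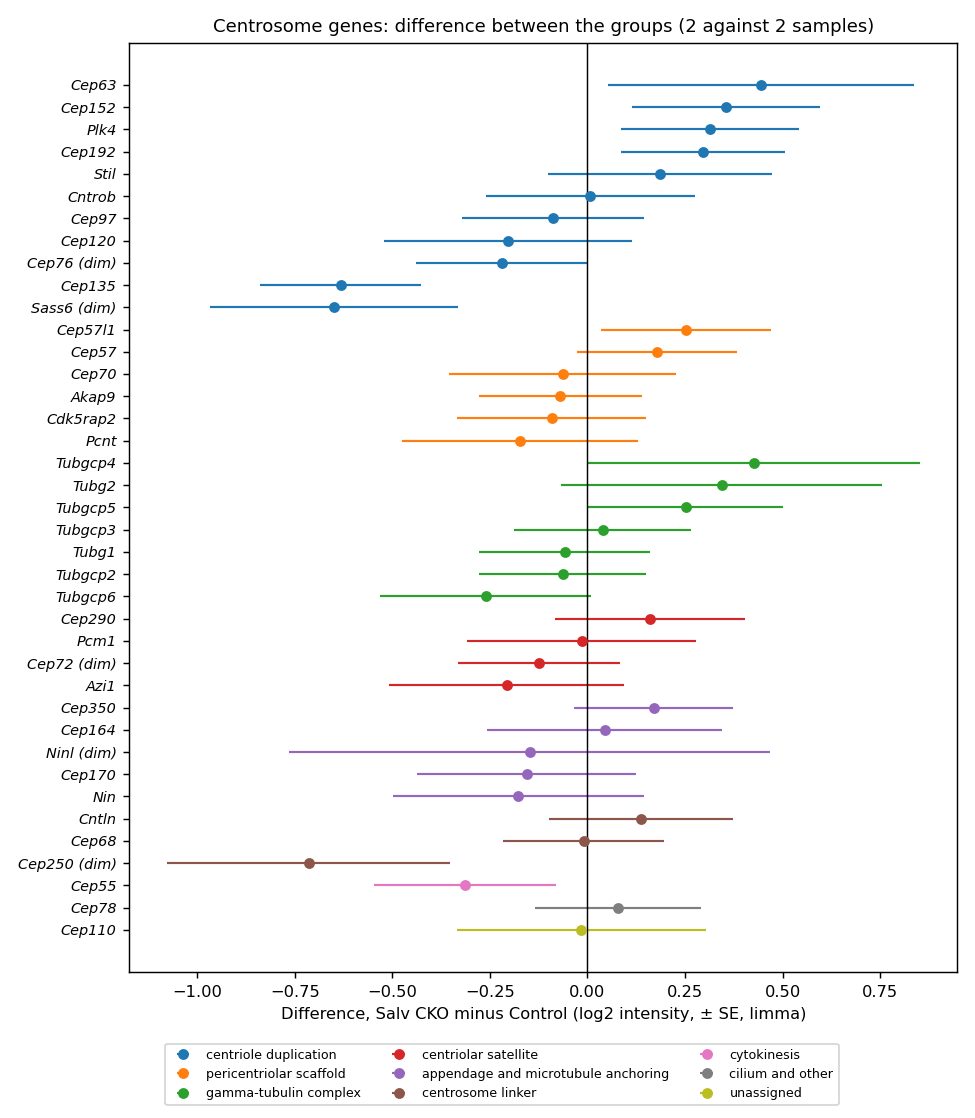
Difference between Salv CKO and Control on the log2 intensity scale (x axis) for each of the 39 centrosome genes (y axis), grouped by role. Points are the limma estimates from 2 against 2 samples and bars are ± 1 SE; dim marks a mean deposited intensity under 100. The points lie on both sides of 0, from -0.71 (Cep250, dim) to 0.45 (Cep63), and the 95% interval leaves out 0 in 1 gene, Cep135.

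The centriole duplication genes moved in no single direction. Differences were positive in 6 and negative in 5 of the 11 measured (median 0.0078). Plk4, the kinase that starts centriole duplication, and Cep152 and Cep192, the scaffolds that recruit it to the centriole, lay higher in both samples labelled Salv CKO. Cep135, a protein of the centriole wall and cartwheel, lay lower in both. Only Cep135 had an unadjusted p under 0.05.

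Plk4 had log2 levels of 8.55, 8.68, 8.44 and 8.16. The 2 Salv CKO samples were the high ones, but single arrays of Salv CKO 1 and Control 1 overlapped. The difference was 0.31 ± 0.23 (SE), with a 95% interval from -0.29 to 0.91. Cep152 had levels of 8.04, 7.66, 7.51 and 7.48. Salv CKO 1 was the sample that stood out, with Salv CKO 2 close to the controls. The difference was 0.36 ± 0.24, with an interval from -0.28 to 0.99. Without Salv CKO 1 it was 0.16. Cep192 was at 8.77 in both Salv CKO samples and at 8.55 and 8.40 in the controls. The difference was 0.30 ± 0.21, with an interval from -0.26 to 0.85. The differences of Plk4, Cep152 and Cep192 stayed positive under the other scalings and pseudocounts and with the median of technical arrays. None passed the adjusted threshold (limma, adjusted p = 0.998 each). Leaving a sample out could not change their sign, because their groups did not overlap. Settings that changed only the test or the set of probes left the differences as they were.

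Cep135 had levels of 7.84, 7.80, 8.42 and 8.49. Both Salv CKO samples were low and the samples of each group lay close together. Its mean deposited intensities were 210, 257, 345 and 330 in the same order. The difference was -0.63 ± 0.21 (SE, limma, adjusted p = 0.998), that is 0.645 times the control level, with an interval from -1.18 to -0.089. It ran from -0.67 to -0.60 with each sample left out in turn. All 6 arrays of the Salv CKO samples lay below all 6 arrays of the controls. Such a separation over the 12 arrays was found in 3 members, Cep135 lower and Cep152 and Cep192 higher, against 5.94% of all named genes (2.58% higher and 3.35% lower).

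**Figure D2:**
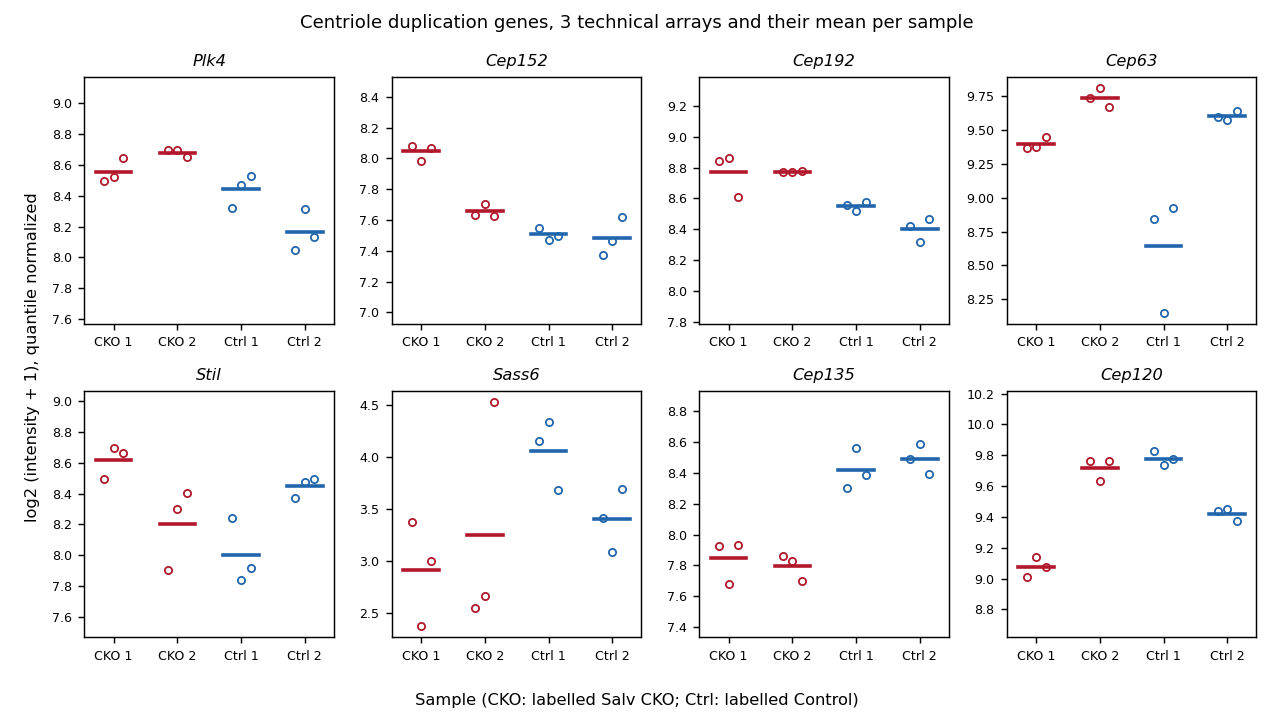
Log2 (intensity + 1) after quantile normalization (y axis) of 8 centriole duplication genes in the 4 samples (x axis). Circles are the 3 technical arrays of a sample and bars their mean; each panel has its own y range, of at least 1.6. Cep135 is lower in all 6 Salv CKO arrays, Cep192 and Cep152 are higher in them, and Cep63 is low in Control 1 and Cep120 in Salv CKO 1.

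The other duplication genes split within the groups. Cep63, which works with Cep152, had levels of 9.40, 9.73, 8.64 and 9.60. Control 1 alone was low, and its 3 arrays ran from 8.15 to 8.92. The difference of 0.45 ± 0.39 became -0.034 without Control 1. Stil, a partner of Plk4 in procentriole assembly, had levels of 8.62, 8.20, 8.00 and 8.45. The groups overlapped, with a difference of 0.19 ± 0.29. Cep120, which helps centrioles elongate, had levels of 9.08, 9.72, 9.78 and 9.42. Salv CKO 1 was low, and without it the difference of -0.20 was 0.12.

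Sass6, the cartwheel protein that sets the symmetry of the centriole, was too dim to be read. Its deposited values ran from 5 to 33 over the 12 arrays, and its difference of -0.65 ± 0.32 was -0.24 at a pseudocount of 16. Cep76, which limits centriole reduplication, was dim too, at 40 to 73, and its difference was -0.22, or -0.17 at that pseudocount. Cntrob, a daughter centriole protein, differed by 0.0078 ± 0.27, its 4 levels being 7.01, 7.16, 7.33 and 6.83, so the highest and the lowest level were both in controls.

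The RefSeq promoter table (GRCm38.p6) held 300-base windows, 250 bases before to 50 after a start site, for 30 of the 39 genes. They were searched on both strands for TTTGAA, the cell cycle homology element of many mitotic genes, and for CCAAT, the box bound by NF-Y. Matches of the 2 motifs can share letters at their ends. TTTGAA was present in 8 of the 30 genes (26.7%, against 20.2% of all genes in the table) and CCAAT in 13 (43.3%, against 41.1%). Windows of 4 genes are shown, picked by hand from the members without overlap so that they lay on opposite sides: Plk4 and Cep152 higher, Cep135 and Cep55 lower. Other members without overlap also had windows that are not shown, such as Cep57l1, which held both motifs. Capitals mark the motif letters, in either orientation, and each window reads 5′ to 3′ on the gene's strand. The Plk4 window is chr3:40799701-40800000 (plus strand), that of Cep152 chr2:125625064-125625363 (minus), that of Cep135 chr5:76588449-76588748 (plus) and the one shown of 2 for Cep55 chr19:38054791-38055090 (plus).
Plk4: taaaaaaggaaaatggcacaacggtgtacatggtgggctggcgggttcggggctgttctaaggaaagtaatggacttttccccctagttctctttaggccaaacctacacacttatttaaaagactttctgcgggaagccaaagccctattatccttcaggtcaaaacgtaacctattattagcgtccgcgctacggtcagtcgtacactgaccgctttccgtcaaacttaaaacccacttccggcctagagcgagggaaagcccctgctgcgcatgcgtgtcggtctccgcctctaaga
Cep152: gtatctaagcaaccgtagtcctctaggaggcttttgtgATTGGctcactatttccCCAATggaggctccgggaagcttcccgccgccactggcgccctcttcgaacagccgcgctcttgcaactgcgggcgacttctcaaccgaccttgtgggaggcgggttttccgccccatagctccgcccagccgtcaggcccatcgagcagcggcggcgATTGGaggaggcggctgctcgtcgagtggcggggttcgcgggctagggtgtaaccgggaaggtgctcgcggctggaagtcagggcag
Cep135: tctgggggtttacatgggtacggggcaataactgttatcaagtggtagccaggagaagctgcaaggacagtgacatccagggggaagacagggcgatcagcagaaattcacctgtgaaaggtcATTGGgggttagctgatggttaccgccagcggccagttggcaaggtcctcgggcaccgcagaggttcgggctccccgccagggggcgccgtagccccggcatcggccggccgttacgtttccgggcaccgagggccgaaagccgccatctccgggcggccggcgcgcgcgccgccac
Cep55: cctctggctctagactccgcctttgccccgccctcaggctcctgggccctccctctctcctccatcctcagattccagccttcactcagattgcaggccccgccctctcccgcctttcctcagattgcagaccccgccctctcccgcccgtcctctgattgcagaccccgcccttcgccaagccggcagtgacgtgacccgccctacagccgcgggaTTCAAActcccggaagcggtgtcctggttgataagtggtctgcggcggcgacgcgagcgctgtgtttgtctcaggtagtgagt
The Plk4 window held neither motif. The Cep152 window held CCAAT letters, in either orientation, at 3 places (positions -212, -195 and -37 from the start site), and the Cep135 window at 1 place (-127). The Cep55 window shown held TTTGAA on the opposite strand at -33. In the other Cep55 window the same letters lay at 25, after its start site. These are matches of letters only.

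Cep55, which brings the abscission machinery to the midbody at the end of cytokinesis, lay lower in the samples labelled Salv CKO. Its log2 levels were 10.96, 11.15, 11.52 and 11.22. Salv CKO 2 and Control 2 differed by less than the spread of the groups, and Control 1 was the high sample. The difference was -0.31 ± 0.23 (SE, limma, adjusted p = 0.998), with an interval from -0.93 to 0.30, and it was -0.17 without Control 1. Its difference had the opposite sign to those of a list of mitosis markers. Of 15 listed, 13 were measured, all 13 with positive differences (median 0.63, with 46.9% positive over all named genes). Some of the 13 were dim, with a mean deposited intensity as low as 20.7. The list was not summarised under the alternative settings. Higher levels without overlap were found in 8 (61.5%, against 14.2% of all named genes). None of them passed (limma, smallest adjusted p = 0.998), and 5 had an unadjusted p under 0.05, all higher (1.54% over all named genes). Ccnb2 differed by 1.12 ± 0.34, Plk1 by 0.93 ± 0.31 and Bub1 by 0.63 ± 0.21. No test was made of Cep55 against the list.

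Among the pericentriolar scaffold genes, 2 of 6 differences were positive (median -0.067), and 0 had an unadjusted p under 0.05. Pcnt, the pericentrin scaffold, had levels of 8.65, 8.94, 9.27 and 8.66. Control 1 was high, and the difference of -0.17 ± 0.30 was 0.13 without it. Cdk5rap2, which tethers gamma-tubulin complexes, had levels of 8.04, 8.22, 8.39 and 8.05, with a difference of -0.092 ± 0.24. Akap9, a kinase anchoring protein of the Golgi and centrosome, was among the least variable members. Its levels were 10.06, 10.18, 10.18 and 10.20, with a difference of -0.069 ± 0.21 and an interval from -0.62 to 0.48.

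Cep57 and its paralog Cep57l1, which help keep centrioles engaged, both lay higher in the samples labelled Salv CKO, without overlap. Levels of Cep57 were 8.08, 8.05, 7.87 and 7.91. Its difference was 0.18 ± 0.20. Those of Cep57l1 were 8.36, 8.17, 7.95 and 8.07, and its difference was 0.25 ± 0.22. Their single arrays overlapped between the groups.

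The gamma-tubulin complex showed no common shift. Differences were positive in 4 of its 7 genes (median 0.039), and 0 of 7 were without overlap between the groups. Tubg1, the gamma-tubulin gene used by most dividing cells, had levels of 9.45, 9.23, 9.34 and 9.45. The 4 samples lay within 0.22 of each other, and the difference was -0.058 ± 0.22 (SE), with an interval from -0.64 to 0.52. Tubgcp2 and Tubgcp3, the core subunits that pair with gamma-tubulin in the small complex, differed by -0.063 ± 0.21 and 0.039 ± 0.23. Their levels were 10.09, 10.25, 10.29 and 10.18 for Tubgcp2, and 9.02, 9.17, 9.19 and 8.92 for Tubgcp3.

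The subunits found only in the ring complex, Tubgcp4, Tubgcp5 and Tubgcp6, varied more. Tubgcp4 had levels of 7.09, 7.14, 6.12 and 7.25. Control 1 alone was low, and the difference of 0.43 ± 0.42 became -0.14 without it. Tubgcp5, at 8.39, 8.56, 8.02 and 8.42, was also lowest in Control 1. Its difference was 0.25 ± 0.25. Tubgcp6, at 6.88, 7.25, 7.52 and 7.13, was highest there, with a difference of -0.26 ± 0.27. Tubg2, the second gamma-tubulin gene, had levels of 7.37, 6.46, 6.27 and 6.86. Each group held a higher and a lower sample, and the difference of 0.34 ± 0.41 was -0.11 without Salv CKO 1.

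**Figure D3:**
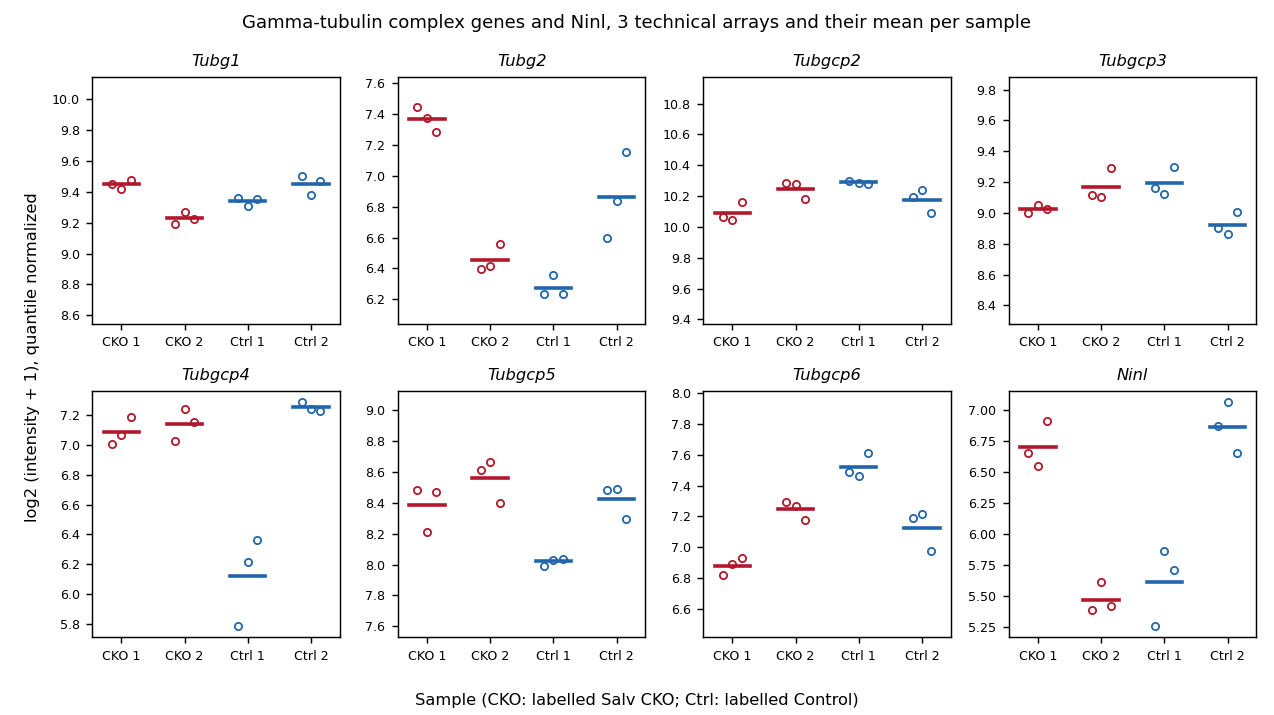
Log2 (intensity + 1) after quantile normalization (y axis) of the 7 gamma-tubulin complex genes and Ninl in the 4 samples (x axis). Circles are the 3 technical arrays of a sample and bars their mean; each panel has its own y range, of at least 1.6. Tubg1 lies within 0.22 over the samples, Tubgcp4 is low in Control 1 at 6.12, and Ninl is high in Salv CKO 1 and Control 2.

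Of the 4 satellite genes, whose proteins form granules around the centrosome, 1 had a positive difference. Pcm1, the scaffold of the satellites and a marker used to sort cardiomyocyte nuclei, had levels of 8.22, 8.58, 8.68 and 8.15. The groups overlapped, with a difference of -0.015 ± 0.29 (SE). The other, dimmer probe of Pcm1 gave 0.43 ± 0.25 and levels of 7.45, 7.31, 6.75 and 7.15 without overlap, so the 2 probes disagreed and no direction is given. Azi1, with levels of 7.70, 7.81, 8.29 and 7.63, was high in Control 1. Its difference of -0.21 ± 0.30 was 0.12 without Control 1. Cep290, a satellite and transition zone protein, differed by 0.16 ± 0.24, with its highest level, 6.94, in Salv CKO 2. Cep72, at deposited values of 7 to 16, was too dim to be read.

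Of the 5 genes for centriole appendages and microtubule anchoring, 2 had a positive difference. Nin, the ninein that anchors microtubules at the mother centriole, had levels of 7.68, 8.14, 8.39 and 7.79. The groups overlapped, and the difference of -0.18 ± 0.32 (SE) was 0.054 without Salv CKO 1 and 0.12 without Control 1. Cep350, which docks at the centriole and stabilises microtubules, lay higher without overlap but by little. It stood at 9.96 in both Salv CKO samples and 9.79 in both controls. The difference was 0.17 ± 0.20, its other probe gave 0.18, and with median centring it was -0.0055, so the direction rested on the scaling.

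Ninl, the ninein-like protein, varied most of all the members over the samples. Its levels were 6.71, 5.47, 5.61 and 6.86, and its mean deposited intensity was under 100. Each group held 1 high and 1 low sample, and the difference was -0.15 ± 0.62. The airway and alveolar markers lay apart in the same samples. Of 5 listed, 5 were measured, and their summed log2 levels were 33.8, 17.1, 17.7 and 40.7. Scgb3a2 alone was at 10.61, 3.29, 4.02 and 11.55. The part of these cells in the Ninl levels was not tested.

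The 3 linker genes, whose proteins hold the centrosomes of an interphase cell together, gave 1 positive difference. Cep68 was the least variable member, at 10.58, 10.65, 10.59 and 10.66. Its difference was -0.0097 ± 0.21. Cntln, the centlein gene, had a difference of 0.14 ± 0.24 and levels of 8.28, 8.39, 8.03 and 8.37. Cep250, the C-Nap1 gene, had the largest difference of all members, -0.71 ± 0.36, but its deposited values were only 1 to 12, and at a pseudocount of 16 the difference was -0.20. The remaining 6 members, Cep70, Cep78, Cep97, Cep110, Cep164 and Cep170, overlapped between the groups and differed by -0.16 to 0.078. The other, dimmer probe of Cep97 differed by 0.43 ± 0.34, opposite in sign to the -0.089 of the brighter probe, so no direction is given for it.

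The 4 samples did not contribute equally to the spread of the members. Control 1 was the highest sample in 19 of 39 members (48.7%, against 38.1% of all named genes) and the lowest in 10 (25.6%, against 27.4%). Salv CKO 1 was the lowest in 14 (35.9%, against 29.3%). Salv CKO 1 was the highest in 6 (15.4%, against 24.2%). Salv CKO 2 was the highest in 7 (17.9%, against 17.9%) and the lowest in 4 (10.3%, against 18.4%). Control 2 was the highest in 7 (17.9%, against 19.8%) and the lowest in 11 (28.2%, against 24.9%). The median deviation of the members from the mean of the 4 samples was -0.098 and 0.057 in the Salv CKO samples and 0.10 and -0.067 in the controls. Over all named genes these medians were -0.014, 0.0097, 0.049 and -0.014. The members' sample medians thus lay above 0 in 1 sample of each group and below 0 in the other.

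**Figure D4:**
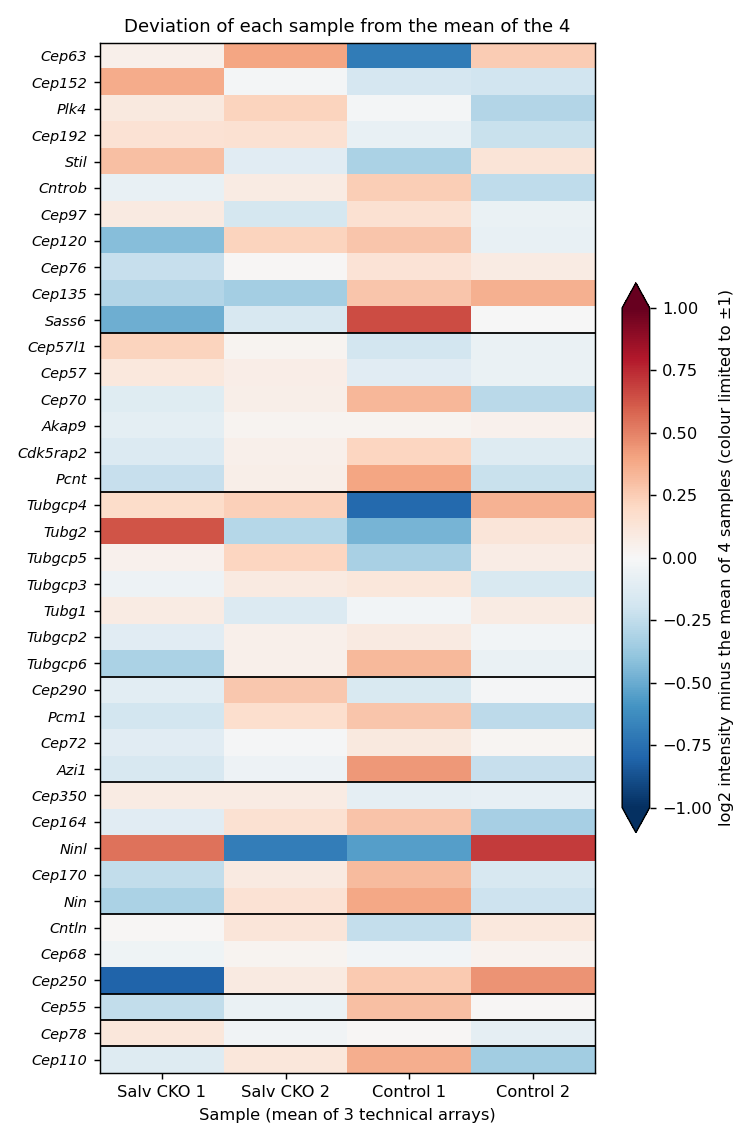
Deviation of each sample's log2 level from the mean of the 4 samples (colour, limited to ±1) for the 39 centrosome genes (rows) in the 4 samples (columns). Lines separate, from the top, duplication, scaffold, gamma-tubulin, satellite, appendage, linker, cytokinesis, Cep78 and Cep110. Pcnt, Nin, Cep170, Pcm1 and Azi1 are highest in Control 1, while Cep63, Tubgcp4 and Tubgcp5 are lowest there.

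The spread between samples of a group exceeded that between technical arrays in 29 of 39 members and in 10993 of 17742 named genes. Without dim genes it did so in 28 of 34 members and 8087 of 9755 named genes. The median SD was 0.20 against 0.094 in the members, and 0.24 against 0.14 over all named genes. The range over the 4 samples was above 1 in 6 members, Ninl, Cep250, Sass6, Tubgcp4, Tubg2 and Cep63, of which 3 were dim. For a member of median SE the 95% interval reached 0.64 on either side of its difference.

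Another 14 genes with a current Cep symbol were listed on the platform under older names and were not members. They had 7 positive differences, a median of -0.023, and 0 with an unadjusted p under 0.05. A further list of 50 centrosome and spindle pole genes outside the members had 45 measured, with 27 positive differences and a median of 0.059. None passed (limma, smallest adjusted p = 0.998), and 2 had an unadjusted p under 0.05, both higher. These were Plk1, the mitotic kinase that matures the centrosome, and Mzt1, a small subunit of the gamma-tubulin ring complex. Mzt1 had levels of 10.68, 10.20, 9.35 and 9.80 and a difference of 0.86 ± 0.30. The difference between Mzt1 and the other subunits was not tested. The spindle pole genes Aurka and Tacc3 differed by 0.45 ± 0.24 and 0.50 ± 0.26, without overlap. In this list 14 genes were higher without overlap (31.1%, against 14.2% of all named genes) and 2 lower (4.44%, against 16.5%), beside 6 and 6 of the members. Control 2 was the lowest sample in 23 of its 45 genes (51.1%, against 24.9% of all named genes). The list's median deviations were -0.061 and 0.092 in the Salv CKO samples and 0.083 and -0.16 in the controls, so Control 1 lay near Salv CKO 2. Plk1, Aurka and Tpx2 are also in the list of mitosis markers. The 2 lists were not tested against each other.

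Of 7 genes for microtubule organisation at the muscle nuclear envelope, 5 were measured and none passed (limma, smallest adjusted p = 0.998). Akap6, which recruits pericentriolar proteins to the envelope, had levels of 9.42, 9.66, 9.32 and 9.49 and a difference of 0.14 ± 0.23. Emd, the emerin gene, differed by 0.87 ± 0.37, with levels of 10.23, 10.31, 8.94 and 9.87. Sun1 differed by -0.20 ± 0.24. Sun2 ran from 0.12 in Control 1 to 6.93 in Control 2, so it could not be compared.

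**Figure D5:**
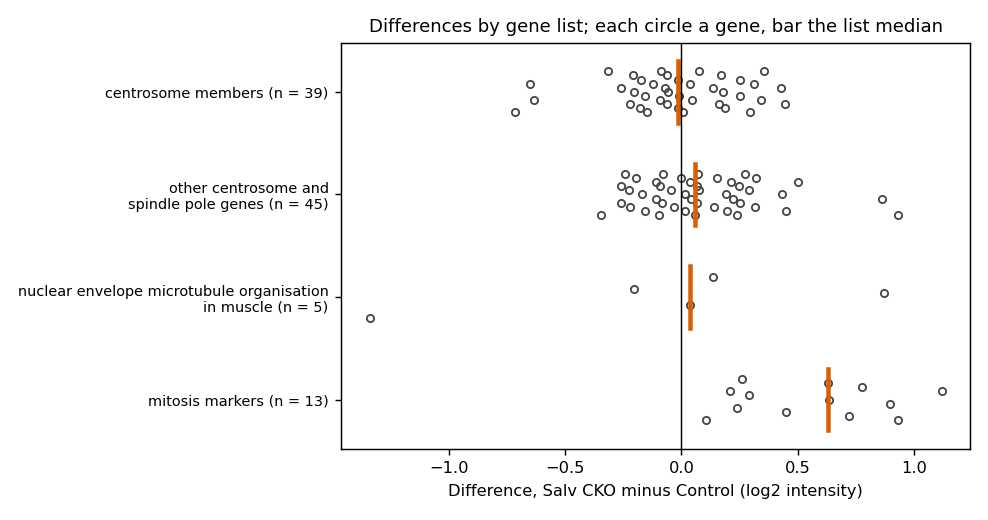
Difference between Salv CKO and Control on the log2 intensity scale (x axis) for the 39 centrosome genes and 3 other lists (y axis). Each circle is a gene and the orange bar the list median: -0.015 for the centrosome genes, 0.059 for other centrosome and spindle pole genes, 0.037 for nuclear envelope genes and 0.63 for mitosis markers.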

How the data were processed

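The authors deposited 1 table of intensities for 12 one-colour arrays. These are whole numbers on a linear scale that include negative values. Per the labels' protocols, aminoallyl RNA was coupled to Cy5. No source used here names the scanner, how background was subtracted, or a normalization. Array medians ran from 58 to 88, and the arrays were quantile normalized (limma 3.58.1, R 4.3.3). Negative results were replaced by 0.0833, the smallest value above 0, log2(value + 1) was taken, and the 3 arrays of a sample were averaged. Salv CKO was compared with Control by lmFit and eBayes over all 26423 probes (4.60 moderated degrees of freedom), with two-sided p-values and Benjamini-Hochberg adjustment. The number of samples limits the precision.

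The platform annotation named 20377 probes with 1 symbol and left 6046 unnamed. In RefSeq's gene table for GRCm38.p6, 18213 matched by symbol, 2126 by a synonym and 38 not at all. Members and lists were chosen with earlier results of these data known. Genes named individually were Sav1, 22 members set by name, the 10 others with the smallest p, the 3 brightest and 3 dimmest, and up to 4 per other list. The procedure was tested on simulated data. Same-numbered samples did not deviate together (correlation -0.25), so no pairing was used. Figures were drawn with matplotlib 3.10.9.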

Additional observations from a re-analysis of the deposited data

How the results depend on the processing

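No setting passed any member (0 of 39 in limma), with the smallest adjusted p at 0.138, where the 12 arrays were fitted with the sample as a random block. The 1 member with an unadjusted p under 0.05 became 2 at a pseudocount of 50 and 2 when technical arrays were summarised by their median, 0 with median centring and without normalization, 5 with the random block (Cep135, Cep152, Cep192, Cep55 and Plk4) and 0 with the sample number as a replicate block. Numbers were not shown to pair the samples. A crossed pairing, chosen after seeing the data, gave 2. With each sample left out in turn it ran from 0 to 3. Members without overlap, 12, became 7 without normalization and 19 to 34 with a sample left out. There 1 sample faced 2, which lies apart more readily than 2 facing 2. For these counts, and for those at an unadjusted p under 0.05, the share over all named genes is given for the main setting only. They are thus no result about the members. The members' median difference ran from -0.12 to 0.050 with a sample left out, and was -0.13 with median centring and 0.061 without normalization, settings that moved the median of all named genes to -0.11 and 0.082.

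Of 33 named members, 13 kept their sign in every setting and 26 in every setting with all samples. Part of this was fixed beforehand. A member without overlap cannot change sign when a sample is left out. Settings that changed only the test or the set of probes left the differences as they were. The sign changed with median centring in Cep350 (-0.0055), Cntrob (-0.031) and Tubgcp3 (-0.11), without normalization in Cep72 (0.13), Ninl (0.0087) and Pcm1 (0.061), with the median of technical arrays in Cep68 (0.0017) and with the mean over probes in Pcm1 (0.21). Differences with a sample left out ran for Sav1 from -0.46 to 0.21. For members whose sign changed then, they ran from -0.54 to 0.12 in Azi1, -0.26 to 0.081 in Cdk5rap2, -0.53 to 0.12 in Cep120, -0.026 to 0.35 in Cep290, -0.034 to 0.93 in Cep63, -0.044 to 0.025 in Cep68, -0.034 to 0.31 in Cntln, -0.24 to 0.26 in Cntrob, -0.47 to 0.12 in Nin, -0.78 to 0.48 in Ninl, -0.28 to 0.25 in Pcm1, -0.48 to 0.13 in Pcnt, -0.038 to 0.41 in Stil, -0.17 to 0.052 in Tubg1, -0.11 to 0.80 in Tubg2, -0.14 to 0.017 in Tubgcp2, -0.096 to 0.17 in Tubgcp3 and -0.14 to 0.99 in Tubgcp4. The sign changed without Salv CKO 1 in Cdk5rap2, Cep120, Cep68, Nin, Pcm1, Stil, Tubg2 and Tubgcp2, without Salv CKO 2 in Cep290, Cntrob, Ninl, Tubg1 and Tubgcp3, without Control 1 in Azi1, Cdk5rap2, Cep63, Cntln, Nin, Pcm1, Pcnt, Stil and Tubgcp4, and without Control 2 in Cep68, Cntrob, Ninl and Tubgcp3. The cause was not tested.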
